A study of Mus musculus with 15 samples.

Results

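The Toll-like receptors other than Tlr3 were measured in WEHI-164 tumors during 7 days that included intratumoral poly(I:C), a synthetic double-stranded RNA that activates Tlr3. They were chosen by name and not by a threshold on their values, although earlier results of these data were known. They are Tlr1, Tlr2, Tlr4, Tlr5, Tlr6, Tlr7, Tlr8, Tlr9 and Tlr13, which are 9 of the 32543 entries used in the count table. All 9 passed the filter on low counts, as did 15494 entries in all. Tlr11 and Tlr12, the other mouse receptors of the family, are given separately. The tumors grew subcutaneously in WT female BALB/c mice from a single fibrosarcoma cell line, WEHI-164. The 3 tumors of day 0 are labelled untreated, whereas legends of the study speak of vehicle, so whether these 3 were given vehicle is uncertain. The other 12 tumors, 3 on each of days 1, 3, 5 and 7, received poly(I:C) daily for a planned 6 doses, at 1 µg in 25 µL per the labels. One legend of the supplement names a higher dose, which leaves the amount uncertain. The sources give an age range for the mice of the whole study and none for these animals.

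Toll-like receptors are membrane proteins that bind molecules shared by many microbes, and some products of damaged cells, through a horseshoe of leucine-rich repeats, and signal through a cytoplasmic TIR domain. Tlr1, Tlr2, Tlr4, Tlr5 and Tlr6 act mainly at the cell surface on lipoproteins, lipopolysaccharide and flagellin, whereas Tlr7, Tlr8, Tlr9 and Tlr13 act in endosomes on RNA or DNA. All 9 use the adaptor MyD88, unlike Tlr3, which uses TRIF, and in tumors much of their transcript is known to come from macrophages, dendritic cells, neutrophils and B cells.

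Depth ranged from 23.7 to 31.9 mega-counts per tumor, and 3 counts, which is as much as a count of 0 could hide, came to 0.0973 to 0.125 CPM (counts divided by the TMM-scaled library size). Intervals and limits of this kind cover counting error only. The fibroblast list, all 7 markers of which were detected in every tumor, summed to 2160 to 25400 CPM, and the macrophage list summed to 2010 to 12200 CPM. Day 3 replicate 1 stood apart from the other 14 tumors. It lay at 144.5 on the first principal component of log2 CPM, which held 57.4% of the variance, against -77 to 45.06 for the others, and it had the highest summed skeletal muscle, fibroblast and adipocyte markers of the 15 tumors (2950, 25400 and 231 CPM). The highest summed keratinocyte markers, 25.2 CPM, were those of day 3 replicate 3. The day 3 fold changes of the receptors and the counts over lists are given with and without day 3 replicate 1. In whole tumors, a change in the number of cells of a type and a change in RNA per cell cannot be told apart.

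Tlr1 and Tlr6 are neighbors on chromosome 5 and share long runs of identical sequence, so the stretch that bears most on how their reads can be divided is shown first. The mouse transcripts of Tlr1 (GRCm38 chr5:64924679-64933563, minus strand) and Tlr6 (chr5:64952031-64960097, minus strand) shared 607 sequences of 31 bases, 18.3% of those of Tlr1 and 16.4% of those of Tlr6. Between their longest coding transcripts, 9 runs of at least 31 bases were identical and held 873 bases in all, each of them coding. The longest run has 229 bases, and covers codons 490 to 566 of Tlr1 and 503 to 579 of Tlr6. Tlr2, Tlr5, Tlr7, Tlr8, Tlr9 and Tlr13 shared no sequence of 31 bases with another gene, and Tlr4 shared 0.559% of its own.
Tlr1 and Tlr6 shared run: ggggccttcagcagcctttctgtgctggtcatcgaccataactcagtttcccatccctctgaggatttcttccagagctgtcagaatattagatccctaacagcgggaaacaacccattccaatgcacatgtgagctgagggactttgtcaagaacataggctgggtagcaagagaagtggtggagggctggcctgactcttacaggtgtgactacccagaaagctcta

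Start site windows from RefSeq (GRCm38.p6, 250 bases before to 50 after the start) were matched for 7 of the 9 receptors, with 9 windows in all, and Tlr4 and Tlr7 had no entry. The windows shown hold a core of the PU.1 motif or of the interferon-stimulated response element, since PU.1 is a factor of the myeloid and B cell lineages and poly(I:C) induces interferon. Each motif was searched on both strands and is in capitals. The PU.1 core GAGGAAG lay in a window of Tlr1, Tlr9 and Tlr13, which is 3 of 7 receptors. Counted by window, it lay in 3 of the 9 windows of these receptors and in 13.6% of all 32851 windows. It began at base -23 in Tlr1, at -112 in Tlr9 with a reverse copy at 11, and at -83 in Tlr13, counted from the start site. The response element core GAAANNGAAA was found in 3.44% of windows, and among these receptors in Tlr6 alone, as 2 overlapping reverse copies at -116 and -110 of a start that lies inside the annotated gene. The NF-kB site GGGNNNNNCC, in 50.8% of windows, lay in those of Tlr2, Tlr5 and Tlr6, and the AP-1 site TGANTCA, in 7.81%, lay at -58 of Tlr9. These matches describe letters and not bound sites.
Tlr1 start site window, chr5:64933509-64933808, minus strand: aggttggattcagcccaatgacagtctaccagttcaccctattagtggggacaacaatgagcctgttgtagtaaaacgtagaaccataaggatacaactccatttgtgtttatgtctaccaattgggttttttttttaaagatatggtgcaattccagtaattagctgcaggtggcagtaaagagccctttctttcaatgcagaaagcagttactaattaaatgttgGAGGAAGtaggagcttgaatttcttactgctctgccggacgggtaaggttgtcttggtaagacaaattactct
Tlr6 internal start site window, chr5:64959117-64959416, minus strand: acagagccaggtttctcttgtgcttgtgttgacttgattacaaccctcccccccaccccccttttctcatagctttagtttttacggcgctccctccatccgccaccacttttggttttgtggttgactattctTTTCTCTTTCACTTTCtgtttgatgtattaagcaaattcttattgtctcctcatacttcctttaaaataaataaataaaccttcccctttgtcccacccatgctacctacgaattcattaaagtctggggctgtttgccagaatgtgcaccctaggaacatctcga
Tlr9 start site window, chr9:106222348-106222647, plus strand: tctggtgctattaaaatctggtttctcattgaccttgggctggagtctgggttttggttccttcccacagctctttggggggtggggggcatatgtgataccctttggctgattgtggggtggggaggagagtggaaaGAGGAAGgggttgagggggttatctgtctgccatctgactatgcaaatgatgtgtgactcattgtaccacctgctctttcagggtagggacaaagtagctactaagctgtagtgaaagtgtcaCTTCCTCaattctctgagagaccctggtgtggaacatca
Tlr13 start site window, chrX:106143025-106143324, plus strand: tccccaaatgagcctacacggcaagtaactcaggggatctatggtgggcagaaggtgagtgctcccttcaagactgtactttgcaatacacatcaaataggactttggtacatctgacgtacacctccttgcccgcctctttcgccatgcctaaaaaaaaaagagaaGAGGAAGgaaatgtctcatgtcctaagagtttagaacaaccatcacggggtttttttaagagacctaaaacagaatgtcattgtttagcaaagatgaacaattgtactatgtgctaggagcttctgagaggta

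Untreated tumors already held transcripts of all 9 receptors. Levels between genes were compared as CPM per kilobase of exon on day 0 (mean ± SD, n = 3). Tlr2 stood at 11.6 ± 2.13 and Tlr13 at 10.9 ± 0.707 CPM per kilobase, with overlapping tumors, followed by Tlr4 at 7.08 ± 0.363. Tlr1 and Tlr8 overlapped each other at 5.93 ± 0.795 and 5.76 ± 0.902. Tlr7 at 3.81 ± 0.348, Tlr9 at 2.71 ± 1.16 and Tlr6 at 2.53 ± 0.449 came next, and each overlapped its neighbor in this order. Tlr5 was the lowest of the 9, at 0.627 ± 0.136, and no tumor of another of the 9 reached its range. The counts behind Tlr5 were 67 to 89 per day 0 tumor, against 1213 to 1313 for Tlr13.

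The lipoprotein receptors were higher on day 3. Tlr2 (chr3:83836272-83841767, minus strand), the shared partner of this group, had 27.6, 39.4 and 37.9 CPM in its untreated tumors, then 30.3, 36.8 and 54.5 (day 1), 81.2, 53.2 and 55.9 (day 3), 74.0, 57.1 and 35.6 (day 5) and 36.0, 50.5 and 26.3 (day 7), in replicates 1, 2 and 3. All 3 tumors of day 3 lay above all 3 of day 0, while days 1, 5 and 7 overlapped day 0. This gave a day 3 log2 fold change of 0.86 ± 0.31 (± standard error for fold changes throughout, edgeR adjusted p = 0.122), or 0.65 ± 0.33 without day 3 replicate 1. Tlr1, which pairs with Tlr2 on triacylated lipopeptides, had 16.8, 21.6 and 21.2 CPM in its untreated tumors, then 19.1, 16.4 and 40.4 (day 1), 113, 42.8 and 36.1 (day 3), 44.3, 34.0 and 18.1 (day 5) and 18.3, 30.2 and 8.32 (day 7). Day 3 again lay wholly above day 0, and day 3 replicate 1 stood far above the other tumors. Its day 3 log2 fold change reached 1.69 ± 0.54 (edgeR adjusted p = 0.115), and 0.99 ± 0.50 without that tumor. Tlr6, which pairs with Tlr2 on diacylated lipopeptides, had 7.69, 11 and 9.57 CPM in its untreated tumors, then 7.82, 9.25 and 18.2 (day 1), 33.3, 15.8 and 16.7 (day 3), 18.8, 14.4 and 9.12 (day 5) and 8.46, 13.8 and 5.48 (day 7). Its day 3 tumors did not overlap those of day 0, and the day 1 tumor of replicate 3 exceeded the lower day 3 tumors. Against day 0 the day 3 difference was 1.22 ± 0.43 on the log2 scale (edgeR adjusted p = 0.118), and 0.79 ± 0.42 without day 3 replicate 1. Since reads of the shared runs can be assigned to either gene, Tlr1 and Tlr6 were also summed, which gave 1.55 ± 0.50 on the log2 scale for day 3 (edgeR adjusted p = 0.115), and 0.93 ± 0.47 without day 3 replicate 1.

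Tlr4 and Tlr5 had the smallest day 3 differences of the 9. Tlr4 (chr4:66827584-66930284, plus strand), the lipopolysaccharide receptor, had 37.2, 41.1 and 39.7 CPM in its untreated tumors, then 32.6, 37.1 and 46.1 (day 1), 69.1, 38.1 and 50.8 (day 3), 42.4, 42.9 and 41.1 (day 5) and 40.0, 39.9 and 33.4 (day 7). Day 3 overlapped day 0 through replicate 2, and the 3 tumors of day 5 lay close together. On day 3 it was 0.42 ± 0.18 log2 units above day 0 (standard error, edgeR adjusted p = 0.152), and 0.18 ± 0.15 without day 3 replicate 1. Tlr5 (chr1:182954788-182976044, plus strand), the flagellin receptor, had 2.26, 3.31 and 3.44 CPM in its untreated tumors, then 2.64, 2.67 and 3.01 (day 1), 6.40, 3.24 and 3.42 (day 3), 4.10, 2.45 and 2.08 (day 5) and 2.81, 3.16 and 1.71 (day 7). On day 3 only replicate 1 lay above the day 0 tumors. This gave a day 3 log2 fold change of 0.53 ± 0.34 (edgeR adjusted p = 0.28), or 0.15 ± 0.33 without that tumor.

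**Figure D1:**
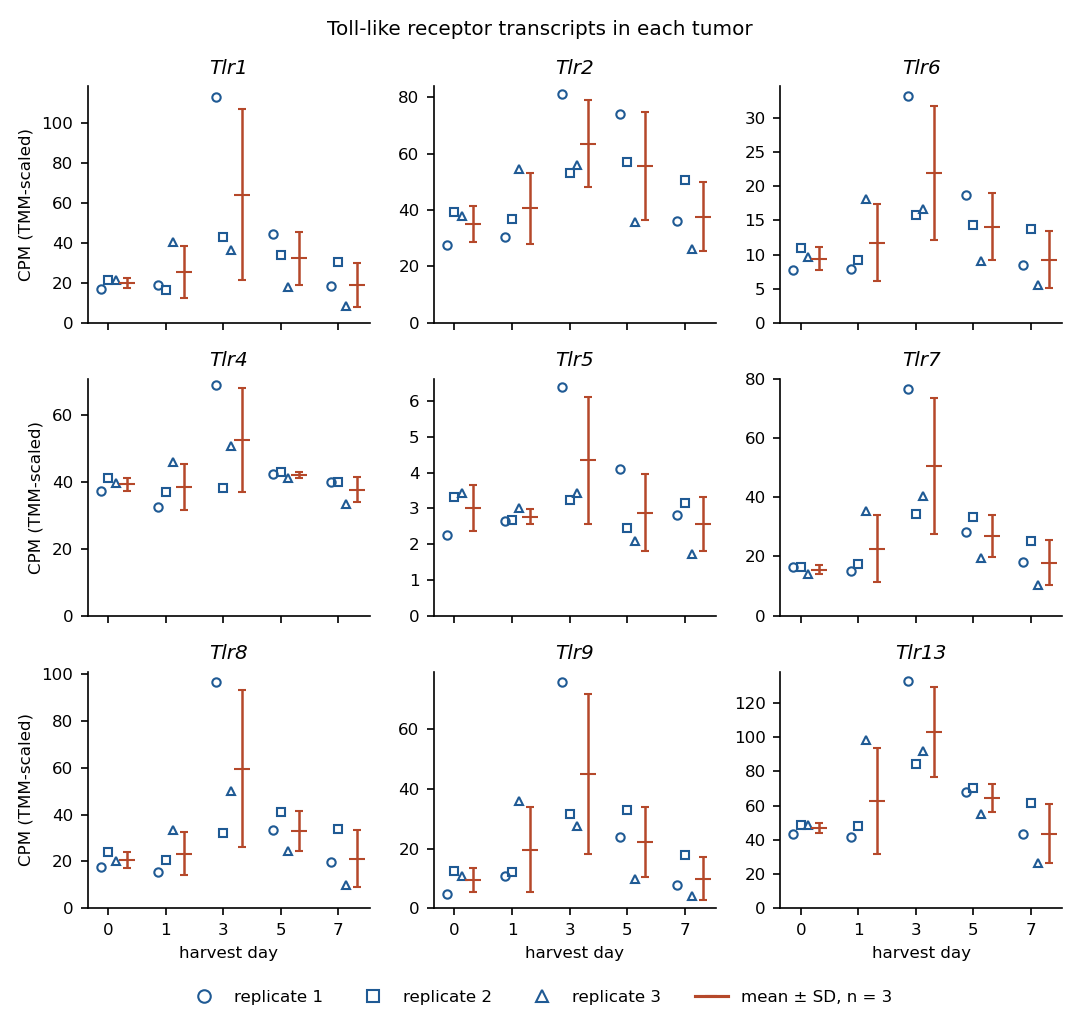
Transcript level of each receptor in CPM (vertical axis, from 0) against harvest day (horizontal axis), with a symbol for each tumor by replicate number and the mean ± SD of 3 tumors beside them. Day 3 replicate 1 is the highest of the 15 tumors for 9 of 9 receptors, and without it the other day 3 tumors remain above day 0 for 7 of the 9.

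The endosomal receptors were higher on day 3 too. Tlr7 (chrX:167304929-167330558, minus strand), a sensor of single-stranded RNA, had 16.3, 16.5 and 13.9 CPM in its untreated tumors, then 14.9, 17.5 and 35.5 (day 1), 76.8, 34.2 and 40.5 (day 3), 28.3, 33.2 and 19.4 (day 5) and 18.1, 25.3 and 10.3 (day 7). Every tumor of days 3 and 5 exceeded every tumor of day 0. Its day 3 log2 fold change reached 1.70 ± 0.41 (edgeR adjusted p = 0.115), and 1.26 ± 0.39 without day 3 replicate 1. Tlr8 (chrX:167242696-167264329, minus strand), which lies next to Tlr7 and also belongs to the RNA sensors, had 17.7, 24.1 and 20.1 CPM in its untreated tumors, then 15.7, 20.7 and 33.4 (day 1), 96.8, 32.1 and 50.2 (day 3), 33.6, 41.3 and 24.3 (day 5) and 19.6, 34.0 and 9.87 (day 7). Days 3 and 5 did not overlap day 0, although the gap on day 5 was only that between 24.1 and 24.3 CPM. Against day 0 the day 3 difference was 1.53 ± 0.46 on the log2 scale (edgeR adjusted p = 0.115), and 1.00 ± 0.44 without day 3 replicate 1.

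Tlr9 (chr9:106222598-106226883, plus strand), the receptor for unmethylated CpG DNA, had 4.82, 12.5 and 10.9 CPM in its untreated tumors, then 10.7, 12.2 and 35.9 (day 1), 75.6, 31.5 and 27.5 (day 3), 23.9, 32.9 and 9.84 (day 5) and 7.69, 17.9 and 4.18 (day 7). Its day 3 tumors did not overlap those of day 0, and it varied more between tumors than any other of the 9, over 4.15 log2 units. On day 3 it was 2.26 ± 0.68 log2 units above day 0 (standard error, edgeR adjusted p = 0.115), and 1.66 ± 0.68 without day 3 replicate 1. Tlr13 (chrX:106143204-106160493, plus strand), a mouse receptor for bacterial ribosomal RNA, had 43.5, 48.9 and 48.6 CPM in its untreated tumors, then 41.5, 48.2 and 98.1 (day 1), 133, 84.1 and 91.7 (day 3), 67.7, 70.5 and 55.0 (day 5) and 43.2, 61.3 and 26.4 (day 7). Days 3 and 5 lay above day 0, and the day 1 tumor of replicate 3 lay among those of day 3. This gave a day 3 log2 fold change of 1.13 ± 0.33 (edgeR adjusted p = 0.115), or 0.91 ± 0.35 without day 3 replicate 1.

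The comparison of day 3 with day 0 asked how the receptors stood on day 3 of the course. Every tumor of a later day was treated, and none of them served as an untreated tumor of the same day. Effects of poly(I:C), of repeated injection and of tumor age therefore cannot be told apart in any comparison with day 0. All 9 were higher in the mean, and their median log2 fold change was 1.22 against -0.02 over all genes tested, and the order of size was Tlr9, Tlr7, Tlr1, Tlr8, Tlr6, Tlr13, Tlr2, Tlr5 and Tlr4. At a Benjamini-Hochberg adjusted p under 0.05, edgeR called none of the 9, as it called 0% of genes in every comparison here, including the joint test of the 4 treated days. At an unadjusted p under 0.05, 8 of 9 were higher on day 3, all but Tlr5, where 30.0% of all genes passed in either direction and 18.3% passed as higher. The tumors of days 0 and 3 did not overlap for 7 of 9, all but Tlr4 and Tlr5, and 19.4% of genes were higher without overlap. Without day 3 replicate 1, all 9 stayed higher in the mean, the median was 0.91, and 4 of 9 (Tlr7, Tlr8, Tlr9 and Tlr13) were higher at an unadjusted p under 0.05, against 6.52% of genes.

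The call depended on the tool. DESeq2 called 6 of 9 as higher on day 3 (Tlr1, Tlr6, Tlr7, Tlr8, Tlr9 and Tlr13), where it called 9.43% of the genes it gave an adjusted p as higher, and none of the 9 without day 3 replicate 1, where it called 0.339% as higher. Limma with a weight for each tumor gave day 3 replicate 1 a weight of 0.0719, the lowest of the 15, and called Tlr7, Tlr9 and Tlr13 as higher (limma adjusted p = 0.0241, 0.0445 and 0.0362), against 4.66% of genes. With that tumor left out it called Tlr7 alone (log2 fold change 1.31 ± 0.25, limma adjusted p = 0.0376), against 3.31% of genes in either direction. No fit changed the direction of any of the 9 on day 3.

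**Figure D2:**
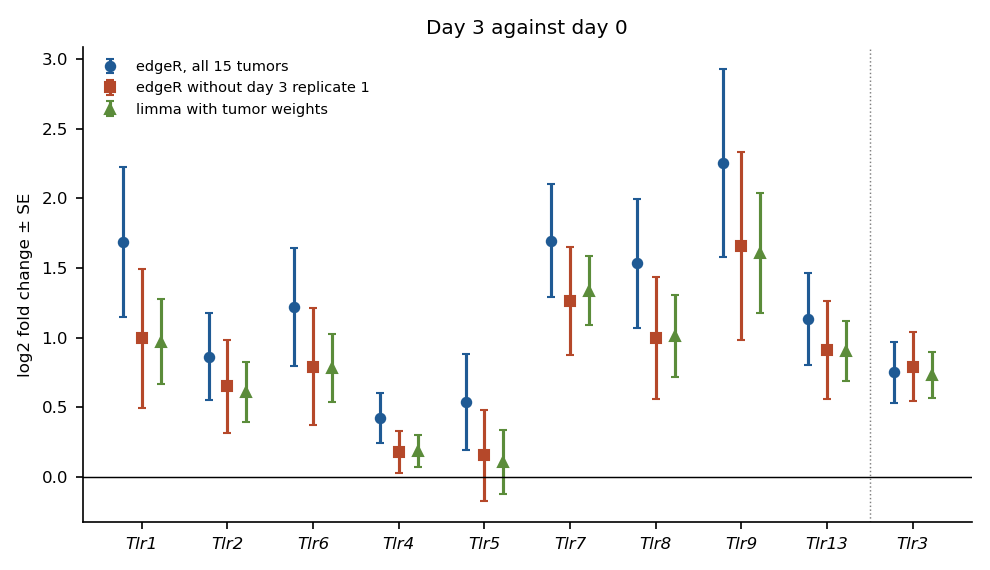
Log2 fold change of day 3 against day 0 (vertical axis, ± standard error) for each receptor and for Tlr3 (right of the dotted line), by edgeR on all 15 tumors, by edgeR without day 3 replicate 1 and by limma with tumor weights. Tlr9 is highest in the full fit at 2.26, the values of the 9 receptors are lower in the other fits, and Tlr3 stays between 0.73 and 0.79.

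The rest of the course was examined day by day. On day 1, 7 of 9 were higher in the mean (median log2 fold change 0.32), none at an unadjusted p under 0.05 (3.16% of genes) by edgeR, and none without overlap (5.76% of genes were higher without overlap). Day 1 replicate 3 was the highest tumor of its day for 9 of 9 receptors. Without it only Tlr7 and Tlr9, 2 of 9, were higher in the mean, and the other 7 lay at -0.18 to -0.06 on the log2 scale. With limma tumor weights 3 of 9 were higher on that day. Without that tumor, the day 1 log2 fold change of Tlr9 was 0.29 ± 0.66 instead of 1.06 ± 0.66, and that of Tlr7 was 0.06 ± 0.39 instead of 0.54 ± 0.40. On day 5, 8 of 9 were higher in the mean, with a median of 0.67, and none passed an unadjusted p under 0.05 (4.80% of genes) by edgeR. Tlr7, Tlr8 and Tlr13 did not overlap day 0 on that day, where 6.89% of genes were higher without overlap. Limma with tumor weights called Tlr2, Tlr7, Tlr8 and Tlr9 as higher on day 5 (limma adjusted p = 0.0302, 0.0144, 0.0326 and 0.0222), against 7.11% of genes. On day 7, 4 of 9 were higher (none once the second day 7 tumor was left out, 8 once the third was, and 1 when the first untreated tumor was), with a median of -0.03, none at an unadjusted p under 0.05 (2.07% of genes) by edgeR and none without overlap (5.02% of genes were higher without overlap).

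Between days 3 and 7 the receptors were lower again. All 9 were lower on day 7 (median log2 fold change -1.24), against 0.02 over all genes, from -2.17 for Tlr9 to -0.48 for Tlr4. EdgeR gave all 9 an unadjusted p under 0.05, where 35.5% of genes passed and 22.6% passed as lower, and the smallest adjusted p was 0.0832. Tumors did not overlap for 7 of 9, all but Tlr4 and Tlr8, against 18.4% of genes lower without overlap. Without day 3 replicate 1, 3 of 9 had an unadjusted p under 0.05 in this comparison, where 8.48% of genes passed as lower. DESeq2 called 6 of 9 as lower (15% of genes) and none without day 3 replicate 1 (0.682% of genes with an adjusted p), where 6 of the 9 had no adjusted p and so could not be called, and limma with tumor weights called Tlr7 and Tlr13 (2.80% of genes). The comparisons with day 0 and with day 7 use the same day 3 tumors. In the joint test of the 4 treated days by edgeR, Tlr1, Tlr7, Tlr8, Tlr9 and Tlr13 had an unadjusted p under 0.05, which 16.2% of genes had. It was 1 of 9 when day 3 replicate 1 was left out, against 7.22% of genes. Harvest day held 63.7% of the variance of Tlr7, 60.2% of Tlr13, 56.9% of Tlr9, 54.9% of Tlr8 and 51.4% of Tlr1, down to 34.8% of Tlr5, against a median of 38.2% over all genes.

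Tlr3, the receptor for poly(I:C) itself, did not overlap day 0 on day 1, whereas each of the 9 did. Its 3 tumors of day 1 lay above day 0, at 29.6, 22.9 and 47.7 CPM against 17.6, 21.1 and 20.8. On that day 5.76% of genes were higher without overlap. Its day 3 tumors were at 31.6, 37.5 and 30.9 CPM. By edgeR its log2 fold change was 0.75 ± 0.22 on day 3 and -0.13 ± 0.22 on day 7. Day 3 replicate 1, the highest tumor for each of the 9, was not the highest for Tlr3. For Tlr3 the day 1 difference was 0.75 ± 0.22 on the log2 scale (edgeR adjusted p = 0.963), and 0.41 ± 0.16 without day 1 replicate 3. Tlr9 had a larger day 1 difference in the mean, 1.06 ± 0.66, with tumors that overlapped day 0. Whether the day 1 difference of Tlr3 exceeded that of the other receptors was not tested. Tlr11 and Tlr12 are sensors of profilin. Tlr11 was scarce, at 6 to 292 counts per tumor. Tlr12 had 1.38 to 24.6 CPM, and on day 0 it stood at 0.805 ± 0.173 CPM per kilobase, against 0.627 ± 0.136 for Tlr5. Day 3 replicate 1 was highest for both Tlr11 and Tlr12. For Tlr12 the day 3 log2 fold change was 2.31 ± 0.65 (edgeR adjusted p = 0.115), and 1.40 ± 0.57 without day 3 replicate 1.

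The receptors moved together across tumors. Over the 15 tumors, Pearson's r between the log2 levels of the 36 pairs of the 9 ranged from 0.73 to 0.98, with a median of 0.91, and from 0.52 to 0.97 without day 3 replicate 1, whereas r of Tlr3 with the 9 was 0.44 to 0.78. The median without that tumor was 0.89. The tumors share libraries and days, so these values are a description. Values for pairs drawn from all genes are not given, so whether the 9 moved more closely than other genes was not tested. Within a day the order of tumors was also shared: day 5 replicate 3 was the lowest tumor of its day for 9 of 9 receptors, day 7 replicate 3 for 9 of 9, and day 7 replicate 2 was the highest of its day for 8 of 9. Of all 15 tumors, day 7 replicate 3 was the lowest for 8 of 9.

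The genes most like each receptor over the 15 tumors were taken from all genes tested. Those of Tlr6 were Selplg, the P-selectin ligand of leukocytes, Spi1, which encodes PU.1, and Scarf1, a scavenger receptor (Pearson's r = 0.99 each, and 0.98 to 0.99 without day 3 replicate 1). Those of Tlr1 were Sash3, Was and an entry named FAM105A (0.99 each), where Was encodes an actin regulator of blood cells. Those of Tlr13 were Ms4a6c, Ms4a6b and Clec4a1 (0.98 to 0.99), membrane proteins of leukocytes. Those of Tlr8 were C1qa, a complement gene of macrophages, Fgd2 and Lair1 (0.98 each), those of Tlr7 were Apobec1, Nckap1l and AB124611 (0.98 to 0.99), and those of Tlr9 were Ada, Gm14548 and Pik3ap1 (0.99 each), the last of which encodes an adaptor of Toll-like receptors. Those of Tlr2 were Hcls1, Snx20 and P2ry14 (0.98 each), and Hcls1 encodes a cortactin-like protein of blood cells. Tlr4 and Tlr5 had less close companions, Serinc3, Dram2 and Arl11 for Tlr4 (0.95 to 0.96, and 0.85 to 0.92 without day 3 replicate 1) and Smarca1, Fap and Fkbp14 for Tlr5 (0.95 to 0.96, and 0.91 to 0.93 without it). Fap encodes fibroblast activation protein and Fkbp14 a folding enzyme for collagen. Spearman's rho for the companions of Tlr5 was 0.83 to 0.92.

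Leukocyte marker lists were higher in the median on day 3, as the receptors were. The macrophage list, 14 of 14 markers tested, had a mean log2 level of 6.74 ± 0.19 in untreated tumors, then 6.78 ± 0.49 (day 1), 7.88 ± 0.67 (day 3), 7.23 ± 0.31 (day 5) and 6.67 ± 0.59 (day 7, SD, n = 3 each), and its summed level was 2660 to 3240 CPM on day 0 and 5060 to 12200 CPM on day 3. On day 3, 12 of 14 macrophage markers were higher, 11 of them at an unadjusted p under 0.05 by edgeR (18.3% of all genes), with a median log2 fold change of 1.52. With day 3 replicate 1 left out, these were 11, 9 (6.52% of all genes) and 1.00. Summed CPM of other leukocyte lists ranged, on days 0 and 3, from 211 to 293 and from 319 to 693 for monocytes, from 29.4 to 41.4 and from 73.7 to 196 for neutrophils, from 2.46 to 4.48 and from 7.12 to 44.3 for B cells, from 6.24 to 13 and from 14.3 to 82.1 for plasmacytoid dendritic cells, from 13.7 to 16 and from 17.2 to 62.5 for conventional dendritic cells, and from 49.6 to 68.2 and from 118 to 441 for T cells. The T cell list had the highest day 3 median of these, 2.03, and 1.29 without day 3 replicate 1. With all tumors, 7 of 7 T cell markers lay above day 0 without overlap (19.4% of all genes). By edgeR, 6 of 7 were higher at an unadjusted p under 0.05 (18.3% of all genes). With day 3 replicate 1 left out, 1 of 7 was (6.52% of all genes). Without that tumor the medians were 1.12 for monocytes instead of 1.26, 0.88 for neutrophils instead of 1.25 and 0.82 for B cells (5 markers tested) instead of 1.61. They were 0.54 for plasmacytoid dendritic cells instead of 1.89 and 0.28 for conventional dendritic cells instead of 1.01. For endothelial cells the median was 0.36 instead of 1.00, and for fibroblasts 0.08 instead of 1.63. For skeletal muscle it was -0.27 instead of 3.02, and for adipocytes 0.33 instead of 2.01. The erythroid list had a day 3 median of 0.12, or -0.69 without that tumor. Its median on day 7 against day 3 was 2.97, where all 9 receptors were lower. All 5 monocyte, 6 of 7 neutrophil, 6 of 7 B cell and 5 of 6 plasmacytoid dendritic markers passed the filter, and Ly6g, which defines neutrophils, had 0 counts in at least 1 untreated tumor. The part of each cell type in the receptor levels was not tested.

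**Figure D3:**
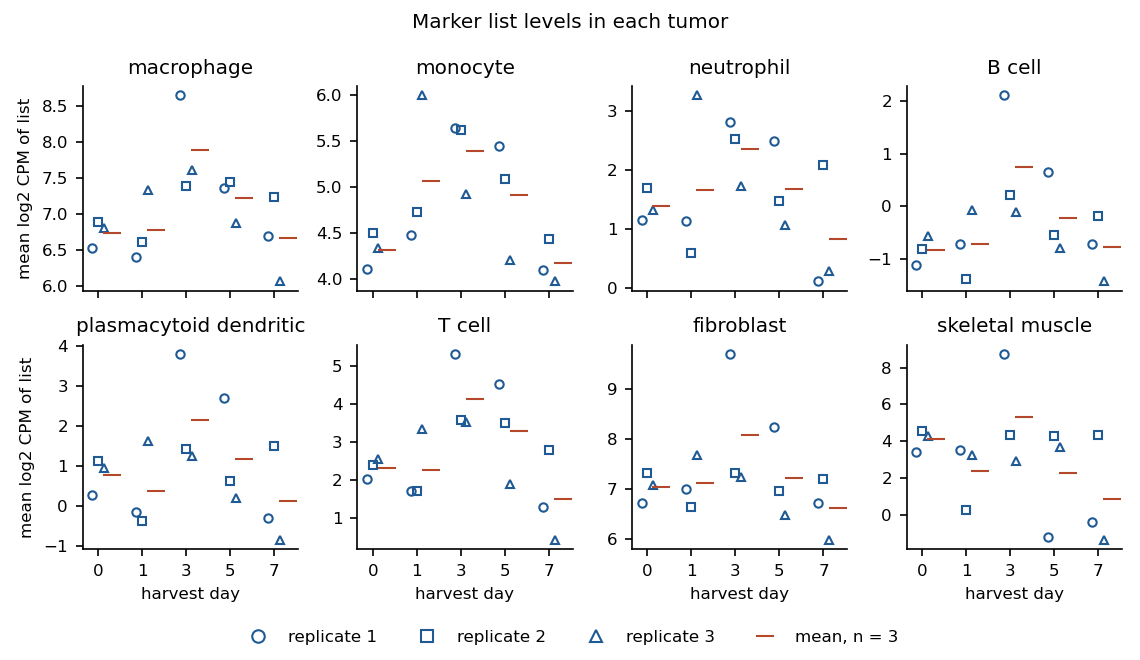
Mean log2 CPM of the tested genes of 8 marker lists (vertical axes, which differ in range and do not start at 0) in each tumor against harvest day, with a symbol for each replicate number and a bar for the mean of 3 tumors. The macrophage level has its highest mean on day 3, at 7.88, and the skeletal muscle and fibroblast levels are highest in day 3 replicate 1.

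Each receptor was then set against the macrophage level of the same tumor, as the difference of log2 levels. This made the standard deviation over the 15 tumors smaller for 8 of 9, from 0.66 to 0.16 for Tlr6, from 0.78 to 0.20 for Tlr8, from 0.75 to 0.21 for Tlr7 and from 1.15 to 0.61 for Tlr9, and larger for Tlr4, from 0.26 to 0.40. On day 3 the difference for Tlr6 and Tlr13 was within 0.04 log2 units of day 0, at a change of 0.0002 and -0.04. It was higher by 1.06 for Tlr9 and by 0.47 for Tlr7, and it was -0.76 for Tlr4 and -0.66 for Tlr5. In these 4 receptors the 3 tumors of day 3 did not overlap those of day 0, each with the smallest two-sided p that an exact permutation test of 3 against 3 allows (p = 0.1). Tlr1 and Tlr8 were higher by 0.36 and 0.25 and Tlr2 was at -0.29, all with overlap. On day 1 the difference lay above day 0 without overlap for Tlr6, Tlr7, Tlr9 and Tlr13 (0.19, 0.39, 0.90 and 0.27, exact permutation p = 0.1 each), and for Tlr3 (0.65, exact permutation p = 0.1). The gap between the days was only that between -2.4927 and -2.4924 for Tlr7, and between -3.4230 and -3.4196 for Tlr6. Without day 3 replicate 1, the day 3 difference was 0.99 for Tlr9, 0.50 for Tlr7, -0.59 for Tlr4 and -0.59 for Tlr5, still with no overlap, and 0.04 for Tlr6, 0.15 for Tlr13 and -0.10 for Tlr2. On day 5 Tlr8 lay above day 0 and Tlr3 below it without overlap (0.17 and -0.27, exact permutation p = 0.1 each). The shares of all genes that separate, or vary less, on this scale were not counted, and no other marker list was subtracted. The 40 exact tests of this kind cannot pass an adjusted threshold of 0.05.

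**Figure D4:**
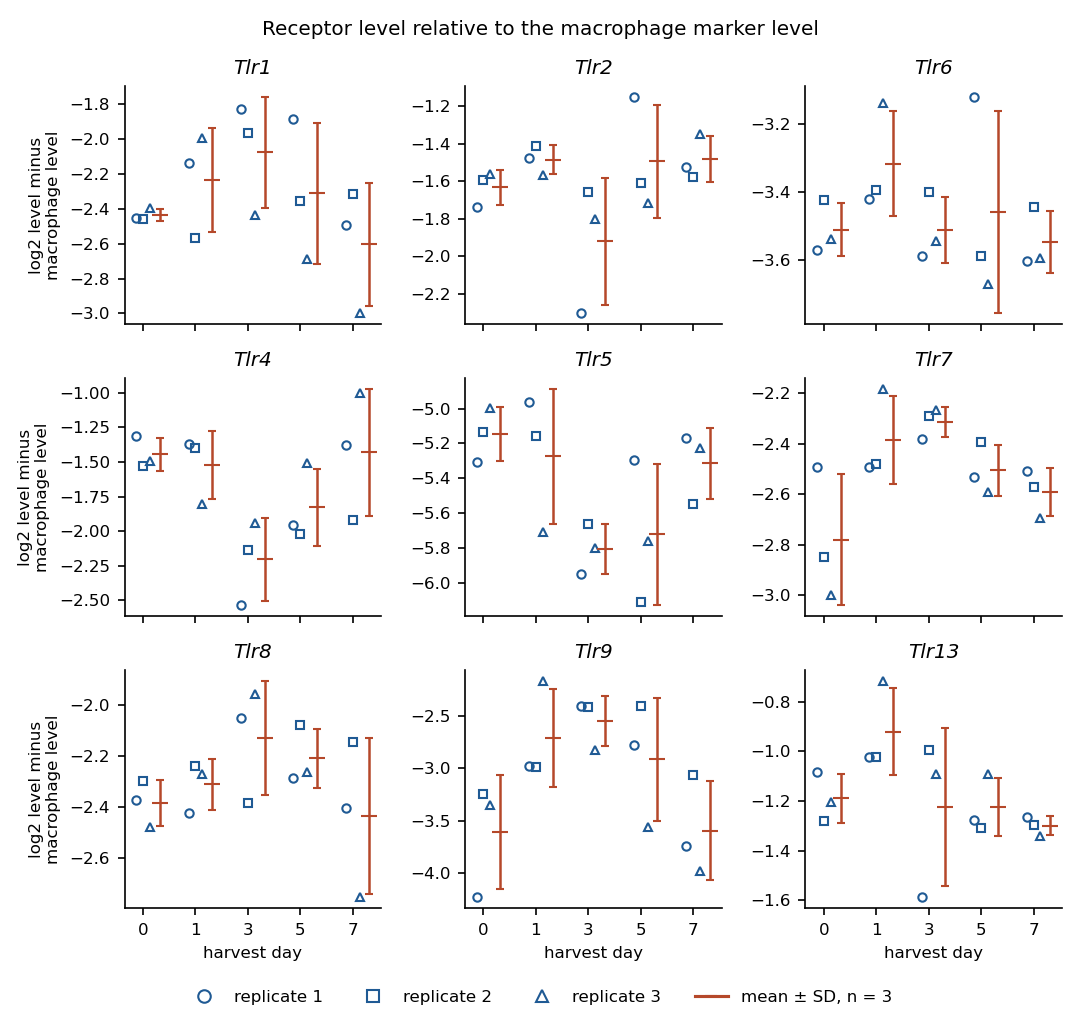
Log2 CPM of each receptor minus the mean log2 CPM of 14 macrophage markers in the same tumor (vertical axes, which differ in range) against harvest day, with a symbol for each tumor by replicate number and the mean ± SD of 3 tumors. Tlr9 and Tlr7 lie higher on day 3 than on day 0, by 1.06 and 0.47, and Tlr4 and Tlr5 lie lower, at -0.76 and -0.66.

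The proteins that bring ligand to the receptors, move them to endosomes or carry their signal were taken from a list of 53 genes, all of which were tested. On day 3, 39 of 53 were higher, 24 of them at an unadjusted p under 0.05 by edgeR (18.3% of all genes), with 2 lower at that threshold and none called after adjustment, and the median log2 fold change was 0.38. Without day 3 replicate 1, 42 were higher, 16 at that threshold (6.52% of all genes), and the median was 0.33. In the accessory and trafficking group 14 of 15 were higher and 11 had an unadjusted p under 0.05, with a median of 1.42. With that tumor left out the counts were 14 and 7 of 15 and the median 0.91. Unc93b1, the chaperone that takes nucleic acid receptors to endosomes, had 134 ± 28.1 CPM in untreated tumors and 432 ± 257 on day 3 (SD, n = 3), and its log2 fold change was 1.68 ± 0.48 (edgeR adjusted p = 0.115), or 1.08 ± 0.44 without day 3 replicate 1. Slc15a4, an endolysosomal transporter needed for Tlr7 and Tlr9 signaling, had a log2 fold change of 1.17 ± 0.29, or 0.70 ± 0.21 without that tumor. The lipopolysaccharide coreceptors Ly96 and Cd14 had 0.89 ± 0.31 and 0.26 ± 0.21, against 0.55 ± 0.29 and 0.28 ± 0.24 without it. Cd36, a coreceptor of Tlr2 and Tlr6, was the highest of the group at 2.49 ± 0.73 (1.57 ± 0.67 without it), and Hsp90b1, a chaperone of receptor folding, was the lowest at -0.23 ± 0.17.

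Adaptors and kinases were divided in direction. On day 3, 16 of 24 were higher, with 8 higher and 2 lower at an unadjusted p under 0.05 by edgeR, where 18.3% of all genes passed as higher. Without day 3 replicate 1, 17 were higher, 6 of them at that threshold (6.52% of all genes). Myd88 had 48.6 ± 2.45 CPM in untreated tumors against 80.2 ± 14.1 on day 3, or 0.72 ± 0.25 on the log2 scale (edgeR adjusted p = 0.116), and 0.59 ± 0.27 without that tumor. Tirap, which bridges Tlr2 and Tlr4 to MyD88, had a log2 fold change of -0.32 ± 0.13, or -0.16 ± 0.09 without it. With all tumors, Tirap was lower on day 3 without overlap, as were 2937 of 15494 genes. Ticam1, which encodes TRIF, had 0.33 ± 0.18 and Ticam2, its bridge to Tlr4, had 1.64 ± 0.58, against 0.10 ± 0.15 and 0.71 ± 0.49 without day 3 replicate 1. The kinase Irak4 had 0.60 ± 0.25 (0.29 ± 0.22 without it) and the ubiquitin ligase Traf6 had -0.03 ± 0.09. Irf7, the interferon regulatory factor downstream of Tlr7 and Tlr9, was highest at 2.63 ± 0.51 (2.54 ± 0.56 without it), and Tab3, a TAK1 partner, was the lowest of the group at -0.40 ± 0.17. Of 14 inhibitors, 9 were higher, 5 of them at that threshold, and 11 and 3 without day 3 replicate 1. Irak3, a decoy kinase that restrains MyD88 signaling, had 5.37 ± 1.56 CPM in untreated tumors against 25.6 ± 18 on day 3, or 2.26 ± 0.66 on the log2 scale (edgeR adjusted p = 0.115) and 1.52 ± 0.62 without that tumor. Sarm1 was the lowest of them at -0.43 ± 0.47, and at -0.88 ± 0.50 without it. On day 7 against day 3, 26 of the 53 were lower and 2 higher at an unadjusted p under 0.05, where 22.6% of all genes passed as lower, with a median of -0.52.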

How the data were processed

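Poly(A) RNA of 15 tumors was sequenced as 100 base single-end reads. The authors checked reads with FastQC, estimated transcript abundance with kallisto on GRCm38 and summed transcripts to genes with tximport. The deposited values are estimated counts for each gene, given as whole numbers with 1 column a tumor. Kallisto divides reads that fit several transcripts, so counts of near-identical genes are uncertain, and strandedness is not given in the sources used here. Of 32544 rows, 1 whose name a spreadsheet had turned into a date was left out (at most 0.0268% of a tumor's counts). Coordinates are those of GENCODE M21.

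The study's own filter was used (over 0.366 CPM in 3 or more tumors). Counts were fitted in edgeR 4.0.16 under R 4.3.3 by quasi-likelihood on the 15 tumors together, with TMM factors and harvest day, and tested two-sided, with Benjamini-Hochberg adjustment over 15494 genes and calls at an adjusted p under 0.05. DESeq2 1.42.0 and limma 3.58.1 with tumor weights were alternatives, and the fits were tested on simulated data. Levels are log2 CPM with a prior count of 2. Values after ± on fold changes are standard errors. Named genes were the receptors, 11 pathway genes, the highest and lowest day 3 fold change of each pathway group, and the 3 genes most correlated with each receptor. Receptors and lists were chosen with earlier results of these data known. The values of 1 cell type marker are not reported here. Legends of the study count mice in each group, so the tumors of a day were taken to come from separate mice. Tumors of the same day were not repeats of a library (chi-square per degree of freedom 9.56 to 284 over 15 pairs).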

Additional observations from a re-analysis of the deposited data

How the results depend on the processing

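The main fit called 0 receptors and 0 pathway genes, so there was no called value to reverse. No alternative reversed the fold change of a receptor or Tlr3 on day 3 or between days 3 and 7. On day 1 directions did change, from 7 of 9 receptors higher to 2 without day 1 replicate 3. Members called with DESeq2 were 6 on day 3, 6 between days 3 and 7 and 5 in the joint test, and pathway genes called were 1 on day 1, 21 on day 3, 23 between days 3 and 7 and 14 in the joint test, where it called 0.259%, 13.5%, 21% and 7.84% of all genes with an adjusted p. With limma tumor weights, the receptors called were 3, 4, 2 and 7 on day 3, on day 5, between days 3 and 7 and in the joint test, and the pathway genes 14, 20, 8 and 32, against 7.65%, 15.9%, 3.41% and 24.9% of all genes. With DESeq2 and without day 3 replicate 1, a combination added after seeing the data, pathway genes called were 1 on day 1, 1 on day 3, 1 between days 3 and 7 and 2 in the joint test (0.501%, 0.686%, 1.19% and 1.27% of genes with an adjusted p). With tumor weights and without that tumor, added likewise, receptors called were 1 on day 3, 4 on day 5 and 7 in the joint test, and pathway genes 6, 22 and 31 (3.31%, 17.0% and 21.6% of genes). Leaving out each tumor in turn, edgeR called 0 to 4 receptors and 0 to 16 pathway genes between days 3 and 7, where 4 and 16 came without day 3 replicate 3 (13.6% of genes), and 0 to 1 pathway genes on day 3, where 1 came without day 1 replicate 3. At an unadjusted p under 0.05, the day 3 count of receptors was 5 without day 0 replicate 1, where 16.9% of genes passed. The count between days 3 and 7 was 5 without day 7 replicate 3, where 19.1% of genes passed. The cause was not tested. Of the counts of receptors or pathway genes over all comparisons, 29 of those at an adjusted p and 53 of those at an unadjusted p moved by over 1.5 times, and 269 and 245 did not. Fold changes of the 9 receptors and Tlr3 on day 3 and between days 3 and 7 kept their side of the threshold in 475 results and moved past it in 29. The 475 include results without an adjusted p, which could not be called. These were 6 receptors and Tlr3 between days 3 and 7, with DESeq2 and without day 3 replicate 1. With a replicate block, edgeR called 0 receptors in each comparison. At an unadjusted p under 0.05, 7 receptors passed on day 3 (24.7% of genes) and 8 between days 3 and 7 (30.5% of genes). Replicate numbers did not pair the tumors: deviations from the day means correlated at a mean of -0.06 between tumors with the same number (9 of 30 pairs over 0.1) and 0.03 between others. The fit to the days compared alone was not run for the joint test, which uses all days. Among the receptors, counts were lowest for Tlr11, at 6 to 292 per tumor, so its values carry the most counting error.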
